A study of Mus musculus with 7 samples.

Results

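The 50 genes described here act in DNA repair, in the checkpoint that halts the cell cycle when DNA is damaged, and in the Fanconi anemia pathway. They were chosen by symbol and found through the GENCODE mouse release M21 names of the Ensembl identifiers, and they are 50 of the 55855 gene identifiers in the table. All 50 were found and all had a mean of at least 1 FPKM (fragments scaled to transcript length and library depth), so all were tested. By role they comprise 4 checkpoint kinases, 16 genes of homologous recombination, 9 of the Fanconi anemia pathway, 5 of end joining, 9 of base excision repair, 6 of nucleotide excision repair and 1 of mismatch repair.

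Bulk RNA sequencing was done on hematopoietic stem cells (HSCs), the rare bone marrow cells from which all blood lineages arise, with and without ferritin heavy chain. Cells came from Fth1△/△ mice, in which Fth1 is deleted in the blood system (4 libraries, called Fth1-deleted), and from mice with the genotype Fth1fl/fl, whose alleles are floxed (3 libraries, called control). Both groups were 2 months old, the tissue was bone marrow, and polyA RNA was made into libraries with the NEBNext Ultra kit. Ferritin heavy chain is the subunit of the iron storage shell that oxidises iron for deposition, and the comparison asks what its loss does to the RNA of these cells. The sources used here do not give the Cre driver, whether the control animals carried Cre, the exons removed, the sort markers, the sex of the mice, or whether each library came from its own mouse.

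Double-strand breaks and stalled replication forks are sensed by the kinases Atm and Atr, which pass the signal to Chek2 and Chek1. Breaks are rejoined by end joining, or copied from the sister chromatid by homologous recombination, while the Fanconi anemia proteins clear crosslinks between the strands. Damaged bases, bulky lesions and mismatches are removed by separate excision pathways. Inherited loss of Fanconi anemia genes leads to bone marrow failure in humans, and in mice loss of several repair genes weakens HSCs. RNA of many genes of recombination and of the replication checkpoint is highest in dividing cells, and 16 of the 50 were listed as linked to replication for this reason: Chek1, Brca1, Brca2, Bard1, Rad54l, Xrcc2, Fanca, Fancb, Fancd2, Fanci, Fancm, Brip1, Blm, Exo1, Neil3 and Msh6.

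Promoter sequence gives context for this split, because transcription tied to DNA replication often runs through E2F sites near the start of a gene. The letters searched were TTCCCGC and TTGGCGC on both strands, as the core of an E2F site. The window ran from 250 bases before to 50 bases after the start in RefSeq, build GRCm38.p6, and 41 of the 50 genes had one. It held a match in 17 of these 41 promoters (41.5%), in 8 of 13 replication-linked genes (61.5%) and in 9 of 28 others (32.1%), beside 12.7% of the promoters of tested genes and 6.93% of all promoters. The promoters of Chek1 (chr9:36726609-36726908, minus strand), Msh6 (chr17:87974800-87975099, plus strand), Rad52 (chr6:119902448-119902747, plus strand) and Lig4 (chr8:9977631-9977930, minus strand, the first of 2 listed) are shown because these genes have the smallest p values among those with a promoter entry, within the replication-linked genes and the rest. Each is written 5′ to 3′ on the strand of the gene, with the E2F match in capitals.
Chek1: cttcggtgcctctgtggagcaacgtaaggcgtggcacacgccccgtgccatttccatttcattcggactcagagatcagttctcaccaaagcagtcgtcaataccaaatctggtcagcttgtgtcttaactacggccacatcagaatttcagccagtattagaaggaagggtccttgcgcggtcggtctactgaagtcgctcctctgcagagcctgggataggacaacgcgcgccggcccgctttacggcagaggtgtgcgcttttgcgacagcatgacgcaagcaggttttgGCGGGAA
Msh6: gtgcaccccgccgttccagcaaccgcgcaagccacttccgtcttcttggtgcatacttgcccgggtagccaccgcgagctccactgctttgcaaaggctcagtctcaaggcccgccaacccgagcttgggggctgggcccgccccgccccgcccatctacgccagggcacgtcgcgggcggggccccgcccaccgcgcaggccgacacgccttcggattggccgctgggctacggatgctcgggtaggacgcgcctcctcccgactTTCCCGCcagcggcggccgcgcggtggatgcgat
Rad52: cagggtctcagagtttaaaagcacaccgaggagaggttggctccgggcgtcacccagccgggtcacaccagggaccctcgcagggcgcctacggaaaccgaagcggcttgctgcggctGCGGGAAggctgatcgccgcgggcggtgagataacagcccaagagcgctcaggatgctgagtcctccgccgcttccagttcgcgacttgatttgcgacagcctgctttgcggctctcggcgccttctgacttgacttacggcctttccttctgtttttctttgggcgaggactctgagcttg
Lig4: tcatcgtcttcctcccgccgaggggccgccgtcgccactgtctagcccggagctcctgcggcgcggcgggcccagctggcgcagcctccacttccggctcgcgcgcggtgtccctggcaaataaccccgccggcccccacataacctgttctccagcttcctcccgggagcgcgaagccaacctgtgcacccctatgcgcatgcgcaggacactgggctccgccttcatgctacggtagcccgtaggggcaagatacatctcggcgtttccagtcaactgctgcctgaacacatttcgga
The match lies downstream of the start in Chek1 and Msh6 and upstream of it in Rad52, and these letters are not in the Lig4 window. The letters CCAAT were in 25 of the 41 promoters, beside 39.05% of the promoters of tested genes and 37.9% of all promoters. Their share was 61.5% in replication-linked genes and 60.7% in the others. The letters TGACNNNGC, the core of the antioxidant response element, were in 14.6% of the 41, beside 15.05% of the promoters of tested genes and 12.5% of all promoters. A match is a run of letters and was not tested as a binding site. The motifs were chosen after the sequences were seen, so these shares are a description and not a test of the split.

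Counted reads, recovered from the steps of the FPKM values, numbered 12058392 to 15453168 per library. Fth1 was at 202, 333, 358 and 114 FPKM in the Fth1-deleted libraries, against 552, 659 and 638 FPKM in control, so RNA was lower but present, and which exons it came from is not known. HSC markers were above 0 in all 7 libraries (10 of 10 genes, summed level 939 to 1229 FPKM in Fth1-deleted libraries and 1173 to 1831 FPKM in control). Control 2 stood apart on the first principal component (-101, the others -15.1 to 39.4, 23.2% of the variance). Ribosomal RNA took 1.19% to 1.36% of the FPKM sum in Fth1-deleted libraries, but 0.0366%, 1.05% and 0.0145% in control 1, 2 and 3. Apart from control 2 this share follows the groups, so values below that use it as a covariate lean on control 2. Y-linked genes summed to 48.4, 64.1, 87.0 and 0 FPKM in the Fth1-deleted libraries, against 0, 93.0 and 0 FPKM in control, so libraries with Y-linked RNA are not balanced between the groups.

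No repair gene passed the adjusted threshold, but 37 of the 50 (74%) had a positive log2 difference, Fth1-deleted minus control. Across all 13948 tested genes 48.7% were positive. The median over the 50 genes was 0.23 on the log2(FPKM + 1) scale, beside -0.02 over all tested genes, and single genes lay between -0.70 and 1.63. The groups did not overlap, with every Fth1-deleted library above every control library, for 5 of the 50: Chek1, Rad52, Rad54l, Mutyh and Lig4. These are 10% of the repair genes, beside 4.1% of all tested genes. Lig4, at 0 in control, passed the filter on low values through the Fth1-deleted libraries alone. With the filter at 5 FPKM, which 45 of the genes passed, 4 remained without overlap. The share of all genes at that filter is not given here. The reverse, every Fth1-deleted library below every control library, held for 0 of the 50, beside 5.55% of all tested genes.

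By limma with Benjamini-Hochberg adjustment over all tested genes, 0 of the 50 passed 0.05 in either direction, and limma-voom on the recovered reads also called 0. Of all tested genes 0.0287% passed as higher and 0.0287% as lower, so few calls were made anywhere in this comparison. The smallest adjusted p among the repair genes was 0.452. At an unadjusted p under 0.05, limma marked 4 as higher (Chek1, Msh6, Xrcc2 and Rad52) and 0 as lower, beside 4.9% higher and 4.93% lower among all tested genes. The share of 4 in 50 is therefore not far above the background.

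Single libraries moved these counts. The number of genes with higher, non-overlapping values was 12 without control 1, 8 without control 3 and 10 without Fth1-deleted 4, and fewer libraries make it easier to reach. The number with lower, non-overlapping values was 1, 4 and 2 without control 1, 2 and 3. The unadjusted count of higher genes was 7 without control 1 and 2 without Fth1-deleted 3. Shares of all tested genes in these settings are not given here, so these counts have no background to be read against. The median of the 50 genes was 0.098 without control 2 and 0.36 without control 1. Of the 50 genes 26 kept their sign in every alternative setting that tested them. There were 19 such settings, of which 18 tested Rad51b, Rad51c, Fancb, Xrcc4 and Lig4. In bulk RNA, a larger share of cells that make a transcript and more of it per cell cannot be told apart.

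**Figure D1:**
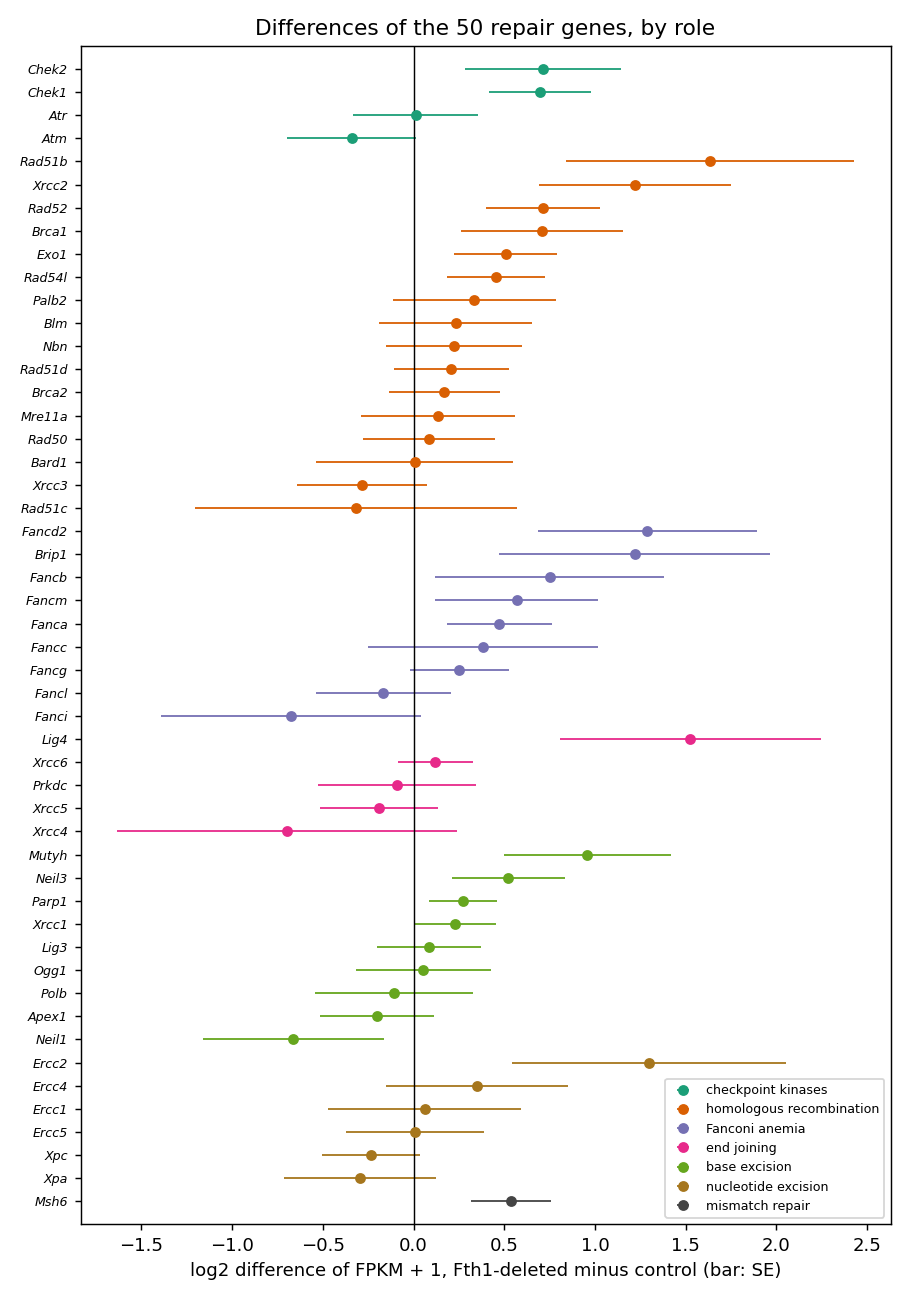
Log2 difference of FPKM + 1, Fth1-deleted minus control, for each of the 50 genes, grouped and coloured by role; points are limma estimates and bars their SE. Of the 50 points 37 lie right of 0, and the widest bars belong to genes with a library at or near 0, such as Xrcc4 and Rad51c.

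The replication-linked genes and the rest differed in their medians. Among the 16 replication-linked genes the log2 differences centred on a median of 0.53 and 15 were positive, Fanci being the exception at -0.68 (1.04 with the ribosomal RNA covariate). The other 34 had a median of 0.08 and 22 were positive. The mean log2(FPKM + 1) of the 16 was 4.40, 4.45, 4.37 and 4.13 in Fth1-deleted 1 to 4, against 4.05, 3.52 and 3.81 in control 1 to 3, so every Fth1-deleted library lay above every control library. For the other 34 it was 4.21, 4.26, 4.27 and 4.16 in the Fth1-deleted libraries, against 4.24, 3.98 and 3.92 in control, and the groups overlapped. The difference between the 2 sets was not tested.

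Markers of dividing cells showed the same order of groups. The list of S phase and replication genes, none of them among the 50, was positive for 25 of 26 genes, at a median of 0.46. Its mean log2(FPKM + 1) was 6.22, 6.11, 6.11 and 6.24 in the Fth1-deleted libraries, against 5.92, 5.40 and 5.66 in control. For G2 and M phase, 21 of 22 genes were positive around a median of 0.58, and the means were 5.83, 5.79, 5.65 and 5.96 in the Fth1-deleted libraries, against 5.77, 4.73 and 5.13 in control, where control 1 overlaps. Without control 2 this median was 0.33, and without control 1 it was 0.88. The part of both lists in the repair gene values was not tested. Without control 2 the median of the 34 genes not linked to replication was -0.057, without control 1 it was 0.22, and the median of the 16 stayed between 0.45 and 0.67 with any 1 library left out.

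**Figure D2:**
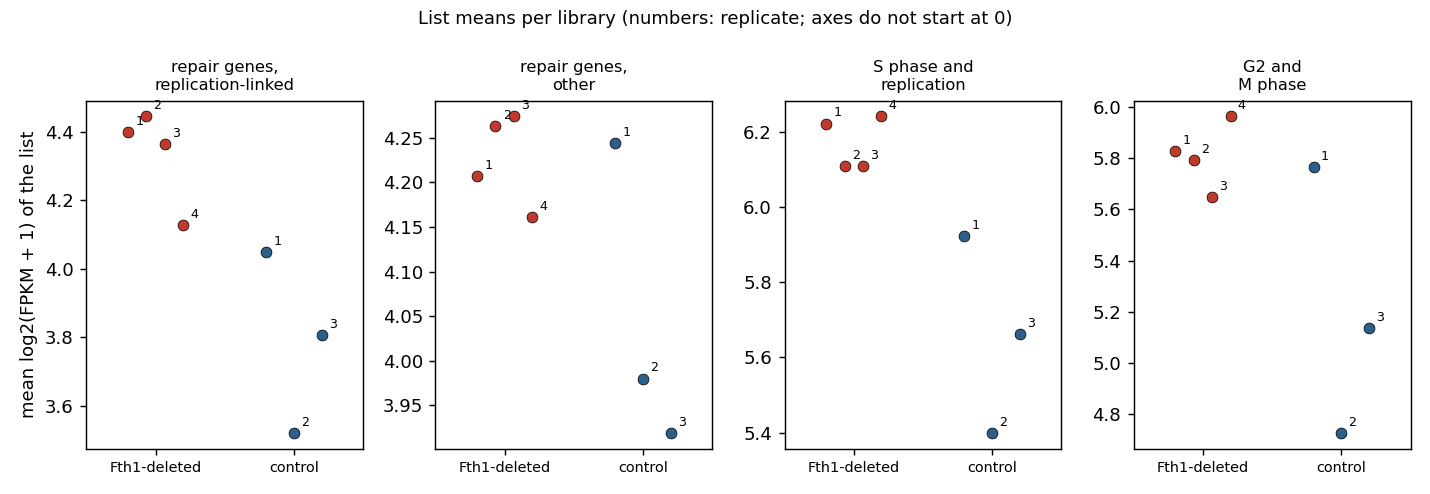
Mean log2(FPKM + 1) of 4 gene lists in each library, with the replicate number beside each point; axes do not start at 0. The replication-linked repair genes and the S phase genes separate the groups, whereas the other repair genes and the G2 and M phase genes overlap.

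Among the checkpoint kinases, Chek1 was higher in every Fth1-deleted library than in every control library, and the values of Chek2, Atm and Atr overlapped. Chek1 (ENSMUSG00000032113, GRCm38 chr9:36708482-36727065, minus strand), the kinase that Atr activates at stalled forks, was at 29.8, 34.1, 35.7 and 24.2 FPKM in the Fth1-deleted libraries, against 16.9, 19.3 and 19.3 FPKM in control. The lowest Fth1-deleted library, number 4, was still above the highest control. The means were 30.9 ± 5.16 FPKM in Fth1-deleted and 18.5 ± 1.37 FPKM in control libraries (SD, n = 4 and 3), a log2 difference of 0.70 (SE 0.28) with a limma adjusted p of 0.452. Its sign was kept in each of the 19 alternatives.

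Chek2, the kinase that Atm activates after double-strand breaks, was at 54.3, 86.7, 97.0 and 36.1 FPKM in the Fth1-deleted libraries, against 28.3, 80.8 and 24.7 FPKM in control. Control 2 lay among the higher Fth1-deleted libraries, so the groups overlapped. Its log2 difference of 0.71 (SE 0.43) had a limma adjusted p of 0.625, and it was -0.81 with the ribosomal RNA share as a covariate.

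Atm, the kinase first activated at double-strand breaks, was at 14.1, 22.2, 22.8 and 10.8 FPKM in the Fth1-deleted libraries, against 18.4, 21.8 and 24.4 FPKM in control (log2 difference -0.34, SE 0.36, limma adjusted p = 0.773). Atr, which responds to single-stranded DNA at forks, was at 20.5, 13.1, 27.1 and 17.2 FPKM in the Fth1-deleted libraries, against 22.8, 16.2 and 17.5 FPKM in control (log2 difference 0.01, SE 0.34, limma adjusted p = 0.993). Both overlapped between the groups, and 3 of the 4 kinases were positive, the median being 0.35. It was 0.18 without Fth1-deleted 3, 0.19 without control 3 and -0.12 with the ribosomal RNA covariate. With a term for libraries that hold Y-linked RNA it was 0.099.

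**Figure D3:**
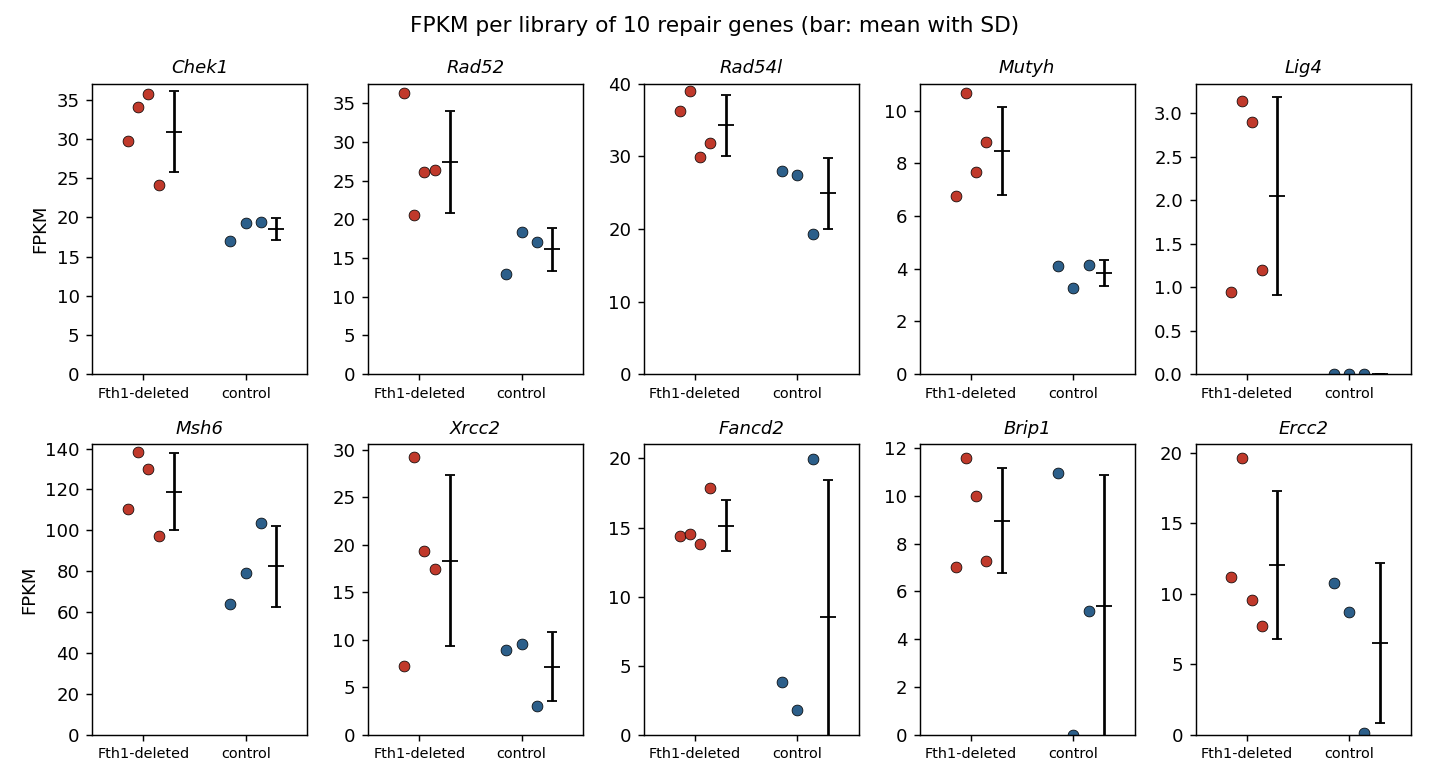
FPKM in each library for 10 repair genes, Fth1-deleted in red and control in blue, with the mean and SD as a bar; the SD bars of control Fancd2 and Brip1 are cut at 0. The upper row holds the 5 genes whose groups do not overlap, with all control libraries of Lig4 at 0, and the lower row holds 5 genes whose groups overlap.

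Homologous recombination had the most genes on the positive side, 14 of 16, with a median log2 difference of 0.23 (0.51 without control 1, 0.087 without control 2). Rad52 (chr6:119902698-119922828, plus strand), which anneals complementary single strands, was at 36.4, 20.5, 26.2 and 26.4 FPKM in the Fth1-deleted libraries, against 13.0, 18.3 and 17.1 FPKM in control. The groups did not overlap, although Fth1-deleted 2 lay close to control 2. Its means were 27.4 ± 6.60 FPKM in Fth1-deleted and 16.1 ± 2.82 FPKM in control libraries, a log2 difference of 0.71 (SE 0.31, limma adjusted p = 0.490).

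Xrcc2 (chr5:25689812-25705825, minus strand), a paralogue of the strand-exchange recombinase that helps load it, was at 7.27, 29.3, 19.3 and 17.5 FPKM in the Fth1-deleted libraries, against 8.91, 9.60 and 3.03 FPKM in control. Fth1-deleted 1 lay within the control range, and the other Fth1-deleted libraries were above it. The log2 difference, 1.22 (SE 0.53), had a limma adjusted p of 0.483 and was 0.77 without control 3. Rad51b, another paralogue of this group, was at 0.628, 4.80, 4.04 and 8.35 FPKM in the Fth1-deleted libraries, against 0, 0 and 2.25 FPKM in control (log2 difference 1.63, SE 0.79, limma adjusted p = 0.540). It is 1 of 5 repair genes listed at 0 in at least 1 library. The remaining paralogues had log2 differences of 0.21 for Rad51d, -0.29 for Xrcc3 and -0.32 for Rad51c, and single libraries moved each of them. Rad51d was at 0.042 without control 2, Xrcc3 at -0.025 without control 1, and Rad51c at 0.56 without control 1 and 0.14 without Fth1-deleted 3.

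Rad54l (chr4:116094264-116123690, minus strand), a motor protein that remodels DNA during strand exchange, was at 36.3, 39.0, 29.9 and 31.9 FPKM in the Fth1-deleted libraries, against 28.0, 27.4 and 19.3 FPKM in control. It was named after its values were seen, as 1 of the 5 genes whose groups did not overlap. The gap between the groups was small, with a log2 difference of 0.46 (SE 0.27) and a limma adjusted p of 0.621. Of its exonic bases, 15.4% are shared with the opposite-strand gene Lrrc41, and reads of the 2 genes cannot be told apart there if the counting ignored strand.

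The Mre11a, Rad50 and Nbn proteins form the complex that first holds and trims broken ends, and their RNAs shared a low value in control 2. Rad50, the recombination gene with the highest level per length, was at 34.9, 40.04, 52.1 and 39.9 FPKM in the Fth1-deleted libraries, against 55.6, 18.7 and 55.8 FPKM in control. Mre11a was at 38.2, 26.8, 33.1 and 33.2 FPKM in the Fth1-deleted libraries, against 47.9, 11.8 and 44.9 FPKM in control. Nbn was at 23.0, 17.7, 25.7 and 14.7 FPKM in the Fth1-deleted libraries, against 19.7, 10.1 and 23.9 FPKM in control. For all 3 genes the Fth1-deleted libraries lay above control 2, and for Mre11a and Rad50 they lay below the other control libraries. The log2 differences were 0.08 for Rad50, 0.13 for Mre11a and 0.22 for Nbn, and without control 2 they were -0.42, -0.50 and -0.12. Rad50, Mre11a, Xrcc5 and Ogg1 are the 4 genes whose groups did not overlap on the lower side without that library.

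The genes of the Brca complexes and of end resection were mostly positive with wide errors. Brca1, which directs breaks to recombination, had a log2 difference of 0.71 (SE 0.45), with a mean of 26.9 ± 3.503 FPKM in Fth1-deleted and 19.2 ± 13.2 FPKM in control libraries. Without control 3, the low library at 6.48 FPKM, the difference was 0.12, and without control 1 it was 1.21. Its partner Bard1 was at 0.01, the bridging protein Palb2 at 0.34 (-0.025 without control 3) and Brca2, which loads the recombinase, at 0.17. The resection nuclease Exo1 had a log2 difference of 0.51 (SE 0.28, limma adjusted p = 0.601), and the helicase Blm, which dissolves joined strands, was at 0.23.

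In the Fanconi anemia pathway 7 of 9 genes had a positive log2 difference, with a median of 0.47, and no gene had groups that did not overlap. Fancd2 (chr6:113531682-113597017, plus strand), which is tagged with ubiquitin when a fork meets a crosslink, was at 14.4, 14.5, 13.8 and 17.9 FPKM in the Fth1-deleted libraries, against 3.83, 1.82 and 19.95 FPKM in control. The Fth1-deleted libraries lay close together, while control 3 was above all of them and control 1 and 2 were well below. The log2 difference of 1.29 (SE 0.60) had a limma adjusted p of 0.521, and lay between 0.68 without control 2 and 2.12 without control 3. Its partner Fanci was at 16.1, 4.20, 1.09 and 5.40 FPKM in the Fth1-deleted libraries, against 15.3, 3.55 and 10.2 FPKM in control (log2 difference -0.68, SE 0.72, limma adjusted p = 0.777). That difference was -1.20 without control 2, -0.28 without control 1, -1.19 without Fth1-deleted 1, -0.18 without Fth1-deleted 3 and 1.04 with the ribosomal RNA covariate. Of the exonic bases of Fanci, 15.95% are shared with the opposite-strand gene Polg.

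The core complex attaches that ubiquitin, with Fancl as its ligase. Fanca was at 38.9, 33.6, 40.1 and 22.5 FPKM in the Fth1-deleted libraries, against 26.7, 22.0 and 22.0 FPKM in control. Fth1-deleted 4 lay in the control range and the other Fth1-deleted libraries above it (log2 difference 0.47, SE 0.29, limma adjusted p = 0.630). Fancg, the Fanconi gene with the highest level per length, was at 36.0, 40.2, 29.9 and 30.6 FPKM in the Fth1-deleted libraries, against 26.9, 36.1 and 23.3 FPKM in control (log2 difference 0.25, SE 0.27, limma adjusted p = 0.779). The remaining core genes had log2 differences of 0.75 for the X-linked Fancb, 0.57 for Fancm, 0.38 for Fancc (-0.12 without control 3) and -0.17 for Fancl.

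Brip1, Mutyh and Ercc2 encode repair enzymes that hold an iron-sulfur cluster, which ties them to iron supply. In the main fit each had a positive log2 difference with a wide error. With the ribosomal RNA covariate, whose fit leans on control 2, the differences were 3.85 for Brip1, 1.15 for Mutyh and -0.043 for Ercc2. Brip1 (chr11:86058138-86201193, minus strand), a helicase of the Fanconi pathway, was at 7.005, 11.6, 9.997 and 7.29 FPKM in the Fth1-deleted libraries, against 10.9, 0 and 5.20 FPKM in control. The value of 0 in control 2 carried the difference, which was 1.22 (SE 0.75, limma adjusted p = 0.629) with it and 0.19 without it. Ercc2 (chr7:19382010-19395694, plus strand), the helicase that opens DNA in nucleotide excision repair and in transcription, was at 11.2, 19.6, 9.59 and 7.73 FPKM in the Fth1-deleted libraries, against 10.8, 8.73 and 0.108 FPKM in control. Control 3 holds 2 reads of this gene, and the difference on the log2 scale was 1.30 (SE 0.75; adjusted p = 0.614 by limma) with it and 0.21 without it. Of the exonic bases of Ercc2, 24.6% are shared with the antisense gene Gm26852 and 17.8% with Klc3.

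Mutyh (ENSMUSG00000028687, chr4:116807723-116819440, plus strand) removes adenine paired with oxidised guanine, the product of oxidative damage. Its level was 6.77, 10.7, 7.68 and 8.81 FPKM in the Fth1-deleted libraries, against 4.10, 3.27 and 4.14 FPKM in control. The groups did not overlap and the control libraries lay close together. The means were 8.48 ± 1.68 FPKM in Fth1-deleted and 3.84 ± 0.494 FPKM in control libraries (SD, n = 4 and 3), 2.21-fold as a ratio of means. By limma the log2 difference of 0.96 (SE 0.46) had an adjusted p of 0.538, and 63 to 186 reads per library lie behind these values. The cysteine codons that bind the cluster are in exon 10 of Mutyh, codons 261 to 277 of 515 in transcript ENSMUST00000102699, at chr4:116817034-116817084 of GRCm38, plus strand. They are shown because they are what links this gene to iron, written 5′ to 3′ with the 4 cysteine codons in capitals.
Mutyh: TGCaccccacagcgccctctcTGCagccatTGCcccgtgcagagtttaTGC
The cysteines are separated by 6, 2 and 5 residues. Over 8 other DNA enzymes with such a cluster the median log2 difference was 0.12, with 5 positive and a range of -0.74 to 0.55. The values of Brip1 without control 2 and of Ercc2 without control 3 lie inside that range, and no difference between the sets was tested. Rev3l, the catalytic subunit of a translesion polymerase, was the lowest of them, at 5.95 ± 1.97 FPKM in Fth1-deleted and 10.4 ± 2.37 FPKM in control libraries with no overlap.

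In base excision repair as a whole 6 of 9 genes were positive and 3 negative, with log2 differences of -0.66 to 0.96. The median was 0.08, and it was 0.21 without control 1, 0.24 without control 3, 0.17 without Fth1-deleted 3, 0.038 without Fth1-deleted 2 and 0.60 with the ribosomal RNA covariate. Parp1, which senses strand breaks, had the highest level per length of the 50 genes, above 98.4% of all tested genes, at 424, 367, 382 and 473 FPKM in the Fth1-deleted libraries, against 390, 259 and 386 FPKM in control. Control 2 was the low library and the groups overlapped (log2 difference 0.27, SE 0.19, limma adjusted p = 0.667), and without control 2 the difference was 0.079. Neil3, a glycosylase that also acts at crosslinks, was at 39.2, 39.5, 53.6 and 27.0 FPKM in the Fth1-deleted libraries, against 38.4, 23.1 and 21.3 FPKM in control (log2 difference 0.52, SE 0.31, limma adjusted p = 0.625). Neil1, a glycosylase for oxidised bases, was at 8.84 ± 2.24 FPKM in Fth1-deleted and 17.02 ± 12.7 FPKM in control libraries, where control 2 alone reached 31.3 FPKM (log2 difference -0.66, SE 0.50, and -0.12 without control 2). Ogg1, which removes oxidised guanine, had a log2 difference of 0.05, Xrcc1, the scaffold of the pathway, 0.23, the ligase Lig3 0.08, the polymerase Polb -0.11 and the endonuclease Apex1 -0.20. Apex1 shares 61.7% of its exonic bases with the opposite-strand gene Pip4p1 and Lig3 25.1% with Rffl, so both levels are uncertain if strand was ignored.

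End joining held the clearest presence and absence. Lig4 (chr8:9969049-9977686, minus strand), the ligase that seals joined ends, was at 0.939, 3.14, 2.90 and 1.20 FPKM in the Fth1-deleted libraries and listed at 0 in all 3 control libraries. A floor of 3 reads in each control library was 0.0545 FPKM on average, and the Fth1-deleted mean of 2.04 ± 1.14 FPKM was 37.5-fold this floor. The Fth1-deleted values rest on 59 to 174 reads. The floor covers counting error only, because reads copied in PCR are not independent molecules, so 37.5 is not a lower bound of the fold. A listed 0 also occurred within a group for genes with more reads elsewhere. Xrcc4 was at 0 in Fth1-deleted 2 and 3 but had up to 207 reads in other libraries. Brip1 was at 0 in control 2 but had up to 422. A 0 for Lig4 is therefore not shown to be absence. Lig4 was near the bottom of the tested range, above 2.63% of tested genes. Its fitted log2 difference of 1.53 (SE 0.72) had a limma adjusted p of 0.524. Such a pattern, 0 in every control library and above 0 in every Fth1-deleted library, occurred in 31 tested genes and its reverse in 18. These counts are not a balanced pair, because 0 in all of 3 libraries is easier to reach than 0 in all of 4, and such genes pass the filter through the other group alone.

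The ends are held by Xrcc5 and Xrcc6, the Ku proteins, and their values overlapped between the groups. Xrcc6, with the highest level per length of this role, was at 90.4, 94.1, 77.1 and 99.4 FPKM in the Fth1-deleted libraries, against 85.9, 66.9 and 98.0 FPKM in control (log2 difference 0.12, SE 0.21, limma adjusted p = 0.867). Xrcc5 was at 21.6, 15.8, 19.0 and 16.8 FPKM in the Fth1-deleted libraries, against 21.7, 15.1 and 27.5 FPKM in control (log2 difference -0.19, SE 0.33, limma adjusted p = 0.865). Xrcc4, the partner of Lig4, did not share its pattern, at 9.37, 0, 0 and 5.67 FPKM in the Fth1-deleted libraries, against 1.31, 7.72 and 4.06 FPKM in control (log2 difference -0.70, SE 0.94, limma adjusted p = 0.826). Prkdc, the kinase bound to Ku, had a log2 difference of -0.09 (SE 0.43), and the median of the 5 genes was -0.09.

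**Figure D4:**
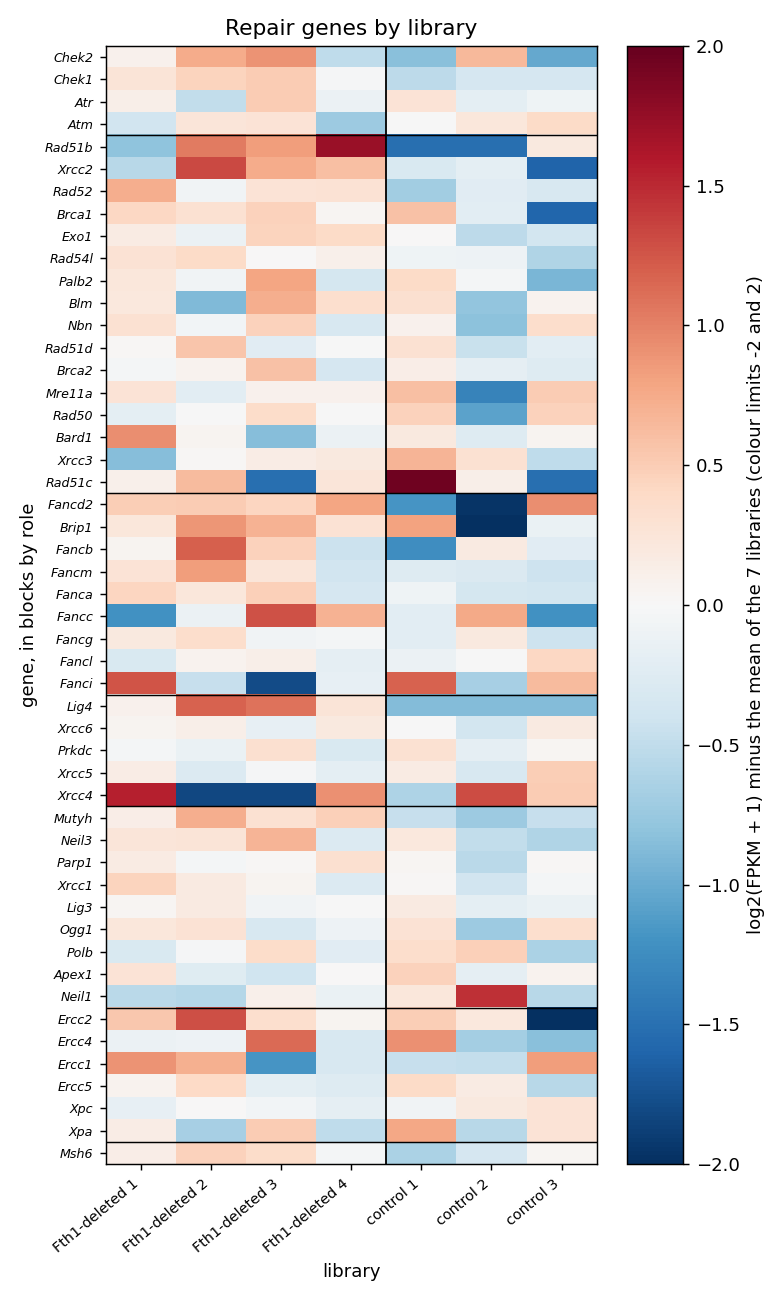
Log2(FPKM + 1) of the 50 genes minus each gene's mean over the 7 libraries, in blocks by role (top to bottom: checkpoint, homologous recombination, Fanconi anemia, end joining, base excision, nucleotide excision, mismatch repair), with Fth1-deleted libraries left of the line and colours limited to -2 and 2. Control 2 and control 3 each hold the lowest value of 14 genes, seen as blue cells.

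Nucleotide excision repair, which cuts out bulky lesions, was centred near 0, with a median of 0.03 on the log2 scale and 4 of 6 genes positive, Ercc2 included. Xpc, which recognises the distorted helix, was at 22.0, 24.9, 23.9 and 21.7 FPKM in the Fth1-deleted libraries, against 23.5, 28.6 and 30.2 FPKM in control (log2 difference -0.23, SE 0.27, limma adjusted p = 0.797). Xpa, which checks the lesion, was at 20.9, 11.4, 27.1 and 13.0 FPKM in the Fth1-deleted libraries, against 32.8, 12.5 and 22.9 FPKM in control (log2 difference -0.30, SE 0.42, limma adjusted p = 0.834). Both overlapped between the groups. The nuclease genes had log2 differences of 0.35 for Ercc4, 0.06 for its partner Ercc1 and 0.01 for Ercc5. Ercc4 was at 0.021 without Fth1-deleted 3 and at 0.035 without control 3. The sign changed in 5 of the 19 alternatives for Ercc1 and in 7 for Ercc5.

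Msh6 (chr17:87975062-87990892, plus strand), a subunit of the protein that recognises mismatches, was at 110, 138, 130 and 97.3 FPKM in the Fth1-deleted libraries, against 64.2, 79.3 and 104 FPKM in control. Fth1-deleted 4 lay below control 3, and the other Fth1-deleted libraries were above all control libraries. The means were 119 ± 18.7 FPKM in Fth1-deleted and 82.4 ± 19.8 FPKM in control libraries, a log2 difference of 0.54 (SE 0.22) with a limma adjusted p of 0.461. With 1577 to 3332 reads per library, counting error is small beside the spread between libraries for this gene.

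Levels and spread set what could be seen. The 50 genes had mean levels of 1.17 FPKM (Lig4) to 383 FPKM (Parp1), with a median of 19.4 FPKM, and 38 were at 10 FPKM or more. For the 46 with a mean of at least 100 reads, libraries varied with a median coefficient of 24.1% among Fth1-deleted and 30.9% among control, while counting error would account for 4.26%. The variation was larger in control for 35 of the 50. Fth1-deleted 2 and 3 each held the highest value of 13 genes, while Fth1-deleted 4 held it for 3.

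A wider list of 91 other repair genes, 90 of them tested, was also mostly positive. Its median log2 difference was 0.20, 63 were positive, and 0 passed the adjusted threshold (smallest limma adjusted p 0.285). Values without overlap were higher for 13 of the 90 (14.4%, beside 4.1% of all tested genes) and lower for 4 (beside 5.55%). At an unadjusted p under 0.05, limma marked 9 of the 90 as higher and 1 as lower, beside 4.9% and 4.93% of all tested genes. Usp1, the protease that removes ubiquitin from Fancd2, was at 96.0 ± 10.6 FPKM in Fth1-deleted and 52.6 ± 20.1 FPKM in control libraries (log2 difference 0.91, SE 0.25, limma adjusted p = 0.285). Tdp1, which frees DNA ends trapped by topoisomerase, was at 38.5 ± 6.77 FPKM in Fth1-deleted and 19.6 ± 3.13 FPKM in control libraries (log2 difference 0.93, SE 0.28, limma adjusted p = 0.309). Clspn, the adaptor through which Atr activates Chek1, was at 46.0 ± 9.45 FPKM in Fth1-deleted and 27.0 ± 1.63 FPKM in control libraries (log2 difference 0.73, SE 0.26, limma adjusted p = 0.413). None of the 3 overlapped between the groups.

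Summed markers listed for macrophages, neutrophils and mast cells were higher in every Fth1-deleted library than in every control library. Of the tested single markers, 2 of 6 for macrophages, 1 of 5 for neutrophils and 1 of 2 for mast cells did so. Sums take in all listed markers, also those too low to be tested. The 6 macrophage markers summed to 50.6 to 114 FPKM in Fth1-deleted and 20.1 to 37.4 FPKM in control libraries, where Adgre1 was at 0 throughout. Neutrophil markers, 5 of 6 tested, summed to 46.9 to 249 FPKM in Fth1-deleted and 2.33 to 44.8 FPKM in control libraries. For this sum Fth1-deleted 2 and control 3 lay close together. Mpo alone separated the groups, at 15.4 to 135 FPKM in Fth1-deleted and 0.255 to 3.63 FPKM in control libraries. Elane was at 0 in all control libraries and in Fth1-deleted 1 and 2. S100a8, S100a9 and Camp overlapped, and Ly6g was at 0 in every library. B cell markers, 6 of 7 tested, summed to 24.3 to 67.7 FPKM in Fth1-deleted and 12.1 to 26.2 FPKM in control libraries, and mast cell markers, 2 of 5 tested, to 16.04 to 42.3 FPKM in Fth1-deleted and 0 to 8.01 FPKM in control. Erythroid markers overlapped, at 99.9 to 358 FPKM in Fth1-deleted and 54.1 to 299 FPKM in control libraries, and T cell markers stayed at 0 to 10.2 FPKM in Fth1-deleted and 0 to 2.91 FPKM in control. None of these other-lineage markers passed the adjusted threshold, and their part in the repair gene values was not tested.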

How the data were processed

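RNA of HSCs was measured in 4 Fth1-deleted and 3 control libraries, grouped by the genotype in the labels. Alignment by the authors used HISAT2 2.0.4 on GRCm38, and HTSeq 0.9.1 gave read numbers per gene, per the submitters' processing notes. What the authors deposited is FPKM, made from those read numbers and the length of each gene, per the series text. The annotation release, the strand setting and any filter are not given in the sources used here. The labels do not say that libraries came from separate mice, so p values measure only the spread between libraries.

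Of 55855 identifiers, 55480 were matched to GENCODE M21. Read numbers were recovered from FPKM and the mean transcript length: of low values, up to 50 reads, 98.9% to 99.5% came out whole within 0.05 reads. The 13948 genes with a mean of at least 1 FPKM were tested on log2(FPKM + 1) by two-sided limma-trend without covariates (limma 3.58.1, R 4.3.3), with Benjamini-Hochberg adjustment over all of them and a threshold of 0.05. Fold changes on this scale understate changes of low genes. Medians of lists have no test. Values in a group are given as mean ± SD, with 4 Fth1-deleted and 3 control libraries. The fit was tested on simulated data.

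The 50 genes, the other lists, the tests and the rule for named genes were chosen with earlier results of these data known. Values per library are given for the 4 checkpoint kinases, the 3 iron-sulfur genes and, per role, up to 3 genes with the smallest p and the gene with the highest level. Those of Rad54l, Mre11a, Nbn, Fanci and Ercc4 lie outside this rule and were chosen after their values were seen. Of the other repair genes the rule names the 4 with the smallest p, and 1 of these is counted in its list without being named. The promoter motifs were chosen after the sequences were seen.

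Nothing in the labels says that replicate numbers pair libraries, and the main fit did not pair them. Deviations of same-numbered libraries from their group means correlated across genes at 0.0090, 0.061 and -0.037, which cannot exclude that they were handled together. Settings tried in turn were a pseudocount of 0.1 or 5, a filter left out or raised to 5 FPKM, median-of-ratios size factors, quantile normalization, rescaling to a fixed sum per library (TPM), library weights, a replicate block, each library left out, limma-voom on recovered reads, a ribosomal RNA covariate and, chosen after seeing the data, a term for Y-linked reads. Overlap with opposite-strand exons reached 10% of exonic bases for 9 genes. By blastn 2.17.0, stretches of at least 150 bases with 95% identity to transcripts of other loci were found for Brip1, Exo1 and Neil3, none above 6.06% of the transcript.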

Additional observations from a re-analysis of the deposited data

Results flagged for a closer look

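One group stood out among the 50 examined for a library far from the rest. Ercc4, the nuclease that cuts on the 5′ side of a lesion, was at 37.9 FPKM in Fth1-deleted 3 and at 13.2 to 15.5 FPKM in the other Fth1-deleted libraries, with control libraries at 32.3, 10.02 and 8.93 FPKM. The gap was 0.908 of the range of the group, above the 95% critical value of Dixon's test for 4 samples. Chance marks about 1 in 20 groups in this way, and 1 of 50 was marked here.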

How the results depend on the processing

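The number of repair genes past the adjusted threshold was 0 in both directions under all 19 alternatives, and the smallest limma adjusted p of any of the genes in any alternative was 0.115 (Mre11a, ribosomal RNA covariate). The sign held in every alternative that tested the gene for 26 of the 50 genes, 20 positive and 6 negative. The number higher at an unadjusted p under 0.05 was 4, with 0 under TPM scaling and 2 to 7 with a library left out. The number lower was 0, with 1 under the ribosomal RNA covariate and 0 to 1 with a library left out. With a library left out, 5 to 12 genes were higher and 0 to 4 lower without overlap. No share of all tested genes is given beside these counts, and fewer libraries make non-overlap easier to reach. Under the ribosomal RNA covariate the median log2 difference was 0.50 for the 50 genes and 0.27 for the genes not linked to replication. This covariate nearly follows the groups apart from control 2, so its fit leans on that library. For the genes not linked to replication the median was -0.057 to 0.22 with a library left out, negative without control 2, and the cause was not tested. TPM scaling moved the median of all tested genes by -0.071 and left 32 of the 50 genes positive, beside 43.7% of all tested genes. With the replicate block, 0 genes passed the threshold, 4 were higher at an unadjusted p under 0.05, and the medians were 0.22 for the 50 genes, 0.67 for the replication-linked genes and 0.099 for the rest. With the term for Y-linked reads the medians were 0.25 for the 50 genes, 0.45 for the replication-linked genes and 0.13 for the rest. Counts of groups without overlap are not defined for library weights, the block or covariates. By role, the medians of end joining, nucleotide excision and checkpoint genes changed sign in 4, 6 and 1 alternatives. Depth limits the genes with few reads, 61.3 on average for the lowest, and for genes with 100 reads or more the spread between libraries exceeded counting error in the median of both groups.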
